A study of Mus musculus with 4 samples.

Results

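Subcluster 1 of the group 2 innate lymphoid cells (ILC2s) was examined here through the genes that the authors listed for it. ILC2s are lymphocytes that lack antigen receptors. The members were the rows with the subcluster number 1 in the authors' table of ILC2 subcluster markers, and they were 363 genes of the 2629 genes listed for any of the 10 subclusters, or 13.8%. The cells were Lin- CD127+ Thy1+ ST2+ cells sorted from wild-type BALB/c mice. Liver and lung were each taken from mice that received PBS (0 µg) and from mice that received recombinant IL-33 (rIL-33, 0.5 µg), by injection into the abdomen on each of 5 days. This gave 1 library for each pair of organ and injection, and the groups are named PBS lung, PBS liver, rIL-33 lung, as well as rIL-33 liver. Each library pooled tissue from several mice, per the study's methods. The table in turn pooled the 4 libraries, so no value could be split by organ or treatment, there were no replicates, and the table held neither a depth nor a number of cells.

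ILC2s are mostly tissue-resident cells that respond to IL-33, through its receptor ST2, by releasing type 2 cytokines. IL-13, encoded by *Il13*, is a main product. Lymphocytes that move between tissues depend on integrins for adhesion, on the small GTPase Rap1 to switch integrins into their binding state, on the actin cytoskeleton for shape change, and on receptors for sphingosine 1-phosphate to leave tissue toward blood and lymph. The transcription factor KLF2 is known in lymphocytes for its link to the sphingosine 1-phosphate receptor gene *S1pr1*. These are statements of background and not results.

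Each listed gene carried the share of subcluster 1 cells in which it was detected and the same share among all other ILC2s, to 0.1 percentage points. A gene was listed when the authors' marker search found it higher in the subcluster. Because the same genes had formed the clusters, the shares are given as a description with no test, and a gene that was absent from the list was not shown to be unchanged. The size of the subcluster was solved from the shares and was 20.1% of the ILC2s, with a standard error of the fit of 0.0166 percentage points that covers rounding of the shares only. Subcluster 0 was larger at 27.3%.

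The 4 genes that give the subcluster its working name were *Itgb1*, *Ass1*, *Pycard* and *Il13*, and all 4 were detected in more cells of subcluster 1 than of the other ILC2s. *Itgb1*, which encodes the integrin β1 chain (GRCm38 chromosome 8, 128685654 to 128733200, plus strand, protein-coding), was found in 69.3% of subcluster 1 cells and in 42.5% of the other ILC2s. *Ass1*, which encodes argininosuccinate synthase, the enzyme that joins citrulline and aspartate (chromosome 2, 31470207 to 31520672, plus strand), was found in 75.7% against 31.9%. *Pycard*, which encodes the inflammasome adapter ASC (chromosome 7, 127989708 to 127993867, minus strand), was found in 87.9% against 46.9%. *Il13* (chromosome 11, 53631324 to 53634702, minus strand) was found in 52.8% against 33.0%. By the difference of the shares *Ass1* and *Pycard* ranked 4 and 5 among the 363 genes, *Itgb1* ranked 36 and *Il13* ranked 88. *Il13* was thus not among the genes that set subcluster 1 most apart by share of cells.

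The upstream sequences of these 4 genes, and of *Klf2*, which ranked 3, are shown because the genes were listed together and because the study asked about GATA3 and AP-1 factors in IL-13 production. They are the 250 bases before the start site in RefSeq (GRCm38.p6), written 5′ to 3′ along the gene's strand. Capitals mark matches, on either strand, to a GATA motif (the word AGATAA, the word AGATAG, the word TGATAA or the word TGATAG), an AP-1 motif (TGAGTCA or TGACTCA) or the KLF motif CACCC. None of the words searched contains another.

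Itgb1 promoter, chr8:128685404-128685653, plus strand: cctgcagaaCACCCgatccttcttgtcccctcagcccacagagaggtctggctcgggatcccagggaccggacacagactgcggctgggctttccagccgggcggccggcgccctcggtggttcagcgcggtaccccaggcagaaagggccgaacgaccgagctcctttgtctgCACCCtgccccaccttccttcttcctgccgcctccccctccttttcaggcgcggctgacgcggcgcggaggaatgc

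Ass1 promoter, chr2:31470020-31470269, plus strand: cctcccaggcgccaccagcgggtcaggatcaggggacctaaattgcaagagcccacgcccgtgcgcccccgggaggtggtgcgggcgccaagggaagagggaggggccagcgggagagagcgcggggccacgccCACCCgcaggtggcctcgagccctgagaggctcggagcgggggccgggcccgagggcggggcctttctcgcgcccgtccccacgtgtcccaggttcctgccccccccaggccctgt

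Pycard promoter, chr7:127993868-127994117, minus strand: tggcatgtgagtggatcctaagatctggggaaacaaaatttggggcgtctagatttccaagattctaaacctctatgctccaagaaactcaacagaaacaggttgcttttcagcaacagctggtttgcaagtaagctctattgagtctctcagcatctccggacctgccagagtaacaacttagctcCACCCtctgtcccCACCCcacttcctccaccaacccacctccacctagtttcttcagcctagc

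Il13 promoter, chr11:53634703-53634952, minus strand: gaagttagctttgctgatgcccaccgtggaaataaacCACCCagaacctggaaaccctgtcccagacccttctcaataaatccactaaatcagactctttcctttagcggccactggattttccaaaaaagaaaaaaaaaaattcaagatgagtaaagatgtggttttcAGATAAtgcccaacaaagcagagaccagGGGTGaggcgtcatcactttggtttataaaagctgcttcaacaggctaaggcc

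Klf2 promoter, chr8:72318812-72319061, plus strand: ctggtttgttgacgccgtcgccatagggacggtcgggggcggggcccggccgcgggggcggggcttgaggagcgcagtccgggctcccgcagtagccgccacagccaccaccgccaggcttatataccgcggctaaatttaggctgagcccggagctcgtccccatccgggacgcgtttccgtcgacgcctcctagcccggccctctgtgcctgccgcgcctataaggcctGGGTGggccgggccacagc

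Among these 5 windows the *Il13* window alone held a GATA match, and it held 1. No window held either of the 2 AP-1 words in full, which says nothing of variant AP-1 sites or of binding there. Within the distance that the *Il13* window spans, the paper reports a JunB motif. It also reports JunB binding there, by chromatin immunoprecipitation in cultured liver ILC2s. The KLF word was found in all 5, with 2 matches each at *Itgb1*, *Pycard* and *Il13* and 1 each at *Ass1* and *Klf2*. The word is common. Of 292 listed genes with an upstream sequence 203 held it, or 69.5%, against 54.5% of all 27025 genes of the sequence table and 61.7% of the 2122 genes of the subcluster table that had a sequence. The GATA motif was in 24.7% of the listed genes, 29.7% of all genes and 19.9% of the table's genes, and the AP-1 motif in 6.51%, 5.16% and 4.29%. A gene with several start sites counted when any window held the word. A match is not evidence of binding.

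The gene with the widest gap in share was *Rasgrp2*, which encodes an exchange factor that loads Rap1 with GTP. *Rasgrp2* was detected in 72.6% of subcluster 1 cells and in 23.3% of the other ILC2s, a difference of 49.3 points, and no other subcluster listed it. *Rasa3*, which encodes a GTPase-activating protein for Ras and Rap1, was found in 53.5% against 13.3%. *Ripor2*, which encodes an inhibitor of RhoA, was found in 79.4% against 34.2%. Subcluster 1 alone listed *Rasgrp2* and *Rasa3*. *Ripor2* was also listed for subcluster 5, where 19.1% of the cells had it.

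Both sphingosine 1-phosphate receptor genes in the list belonged to subcluster 1 alone. *S1pr1* (chromosome 3, 115710433 to 115715072, minus strand) was detected in 50.5% of subcluster 1 cells against 9.9% of the other ILC2s, a ratio of 5.1 that was the largest of the 363 genes. With the solved size, 56.1% of all ILC2s with *S1pr1* lay in subcluster 1. *S1pr4* (chromosome 10, 81497747 to 81500132, minus strand) was found in 79.4% against 44.7%. *Klf2* (chromosome 8, 72319033 to 72321656, plus strand) was found in 87.4% against 43.5%. Subclusters 5 and 7 listed it as well, at 48.5% and 74.0%. The transcription factor genes *Tcf7* and *Lef1*, which encode related factors known from T cell and ILC development, were found in 51.8% against 18.9% and in 37.8% against 19.8%. Only subcluster 7 listed *Tcf7* in addition, at 38.5%, and no other subcluster listed *Lef1*. *Gna15*, which encodes a G protein α subunit and lies next to *S1pr4* (81502306 to 81524225, minus strand), was found in 78.8% against 42.7%.

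**Figure D1:**
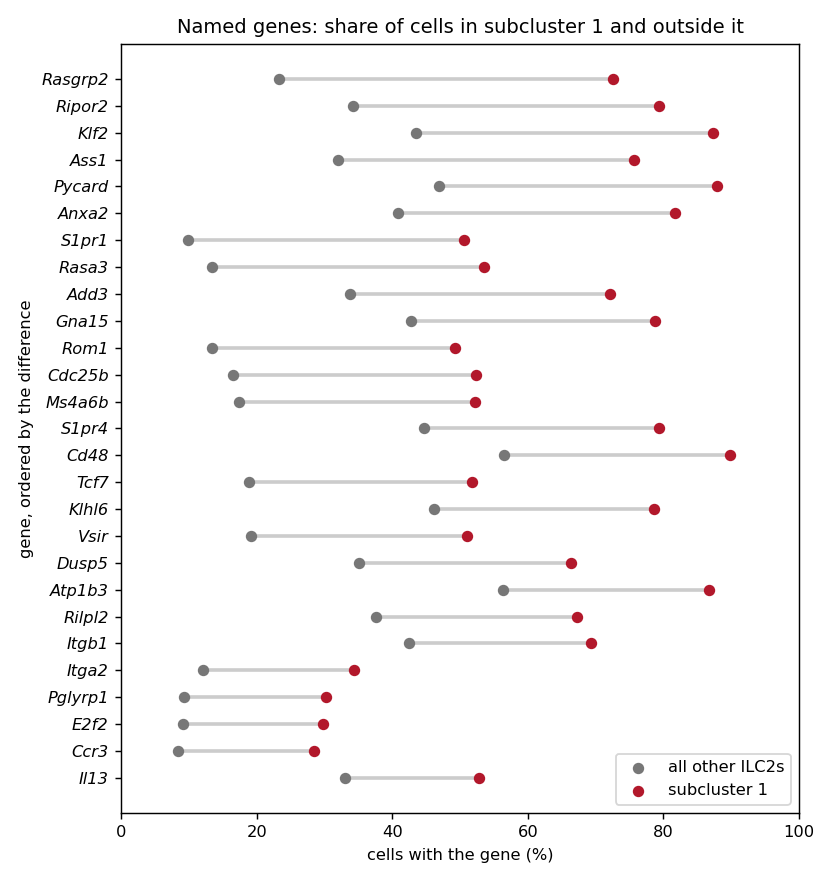
Share of cells with each named gene, in percent, in subcluster 1 (red) and in all other ILC2s (grey), with genes ordered by the difference. The 4 libraries are pooled and there is no error bar because there are no replicates. *Rasgrp2* shows the widest gap (72.6% against 23.3%), while *S1pr1* has the low share of 9.9% outside the subcluster.

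The remaining genes among the 20 with the widest gaps had varied roles. *Anxa2*, for a phospholipid-binding annexin, was found in 81.7% against 40.9%, and *Add3*, for an adducin of the membrane skeleton, in 72.1% against 33.7%. *Cdc25b*, for a phosphatase that activates cyclin-dependent kinases, was found in 52.3% against 16.5%. *Rom1*, best known from photoreceptors, was found in 49.3% against 13.4%, and *Ms4a6b*, of the MS4A membrane protein family, in 52.2% against 17.3%. *Cd48*, for a surface ligand of lymphocytes, was found in 89.9% against 56.5%. *Klhl6*, *Dusp5* and *Atp1b3* had differences of 32.5, 31.3 and 30.4 points. *Vsir*, for the checkpoint protein VISTA, was found in 51.0% against 19.1%. The ratio of the shares brought in 4 further genes of low share elsewhere. *Ccr3*, the eotaxin receptor gene, was found in 28.5% against 8.4%, *E2f2* in 29.8% against 9.1%, *Pglyrp1* in 30.2% against 9.3% and *Itga2* in 34.4% against 12%. The rounded ratios of *Itga2* and *Qrfp* were equal (2.87), and *Itga2* was taken by alphabetical order. Before rounding, *Qrfp* had the slightly higher ratio.

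Across the list the share of cells was above that of the other ILC2s for all 363 genes. The difference had a median of 15.8 points and a range from 0.2 points (*H2-D1*, a class I histocompatibility gene) to 49.3 points. It reached at least 30 points for 24 genes, at least 20 points for 85 and at least 10 points for 311. The median share was 74.7% inside and 54.2% outside. For 104 genes at least 90% of subcluster 1 cells had the gene, and for 40 genes at least 90% of the other ILC2s had it as well, so that shares near their ceiling understate differences in level. Only *S1pr1* and *Rasa3* had at least 50% of their positive cells in subcluster 1, and the median over the list was 25.2% beside a subcluster size of 20.1%. Most listed genes were thus common in ILC2s outside the subcluster as well. A share also rises with the number of transcripts captured per cell. That number was not in the tables, and its part in these differences was not tested. In subclusters 2, 4, 6, 8 and 9, too, every listed gene had the higher share inside, against 63.3% of the genes of subcluster 0 and 2.2% of those of subcluster 5.

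**Figure D2:**
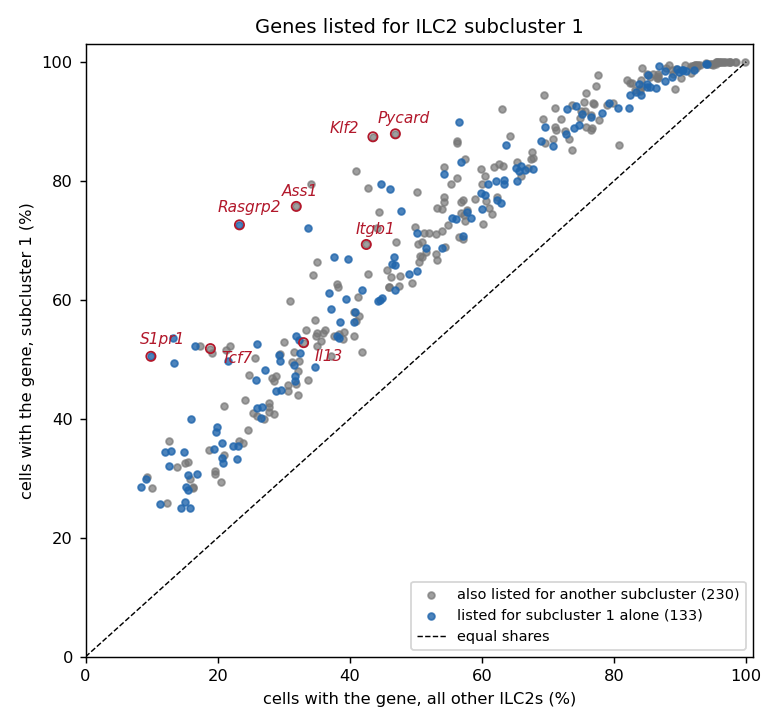
Each point is 1 of the 363 genes, with the share of all other ILC2s on the horizontal axis and the share of subcluster 1 cells on the vertical axis, both in percent. Blue points are the 133 genes that no other subcluster listed, grey points the other 230, and the dashed line marks equal shares. All points lie above the line, and *Rasgrp2*, at 49.3 points, stands farthest from it.

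*Il13* and the other effector genes were compared between subclusters. Among the 5 subclusters that listed *Il13*, subcluster 1 had the lowest share of *Il13*-positive cells (52.8%), below subcluster 2 (56.5%), subcluster 7 (60.5%), subcluster 4 (62.1%) and subcluster 8 (69.7%). In the 5 subclusters that did not list it the solved mean was 17.8%. Subcluster 1, with 20.1% of the cells, held 28.6% of all *Il13*-positive ILC2s. *Il5* and *Il4* were listed for other subclusters and not for subcluster 1, and so was *Areg*, for the growth factor amphiregulin. *Il5* was found in 46.5% of subcluster 7 and 42.0% of subcluster 9, against a mean of 28% in the 8 subclusters without a listing. The solved sizes set no limit on the shares of *Il5*, *Il4* and *Areg* in subcluster 1. Of the 12 cytokine and mediator genes in the table subcluster 1 listed 2 (16.7%, near the 13.8% of all genes), *Il13* and the chemokine gene *Ccl5*, the latter found in 51.2% against 41.8%.

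*Gata3* and *Il1rl1* had no row for subcluster 1, which does not show that they were low there. *Gata3*, for the lineage transcription factor, was listed for subclusters 0 and 3 and was found in 90.9% of all ILC2s, with a mean of 88.6% in the subclusters that did not list it. From the solved sizes, subcluster 1 must have held *Gata3* in at least 67.2% of its cells. For *Il1rl1*, the gene of the IL-33 receptor ST2, the mean in the subclusters without a listing was 83.9% and the lower limit for subcluster 1 was 53.5%. *Il7r*, the gene of the sorted protein CD127, had a lower limit of 89.1%. Of 16 ILC2 core genes in the table subcluster 1 listed 2 (12.5%, near the 13.8% of all genes), *Il13* and *Klrg1*. The other subclusters listed between 1 (subcluster 4) and 9 (subcluster 3). *Klrg1*, for a lectin-like inhibitory receptor of mature ILC2s, was found in 92.1% of subcluster 1 cells against 63.1%, the highest share of the 4 subclusters that listed it.

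**Figure D3:**
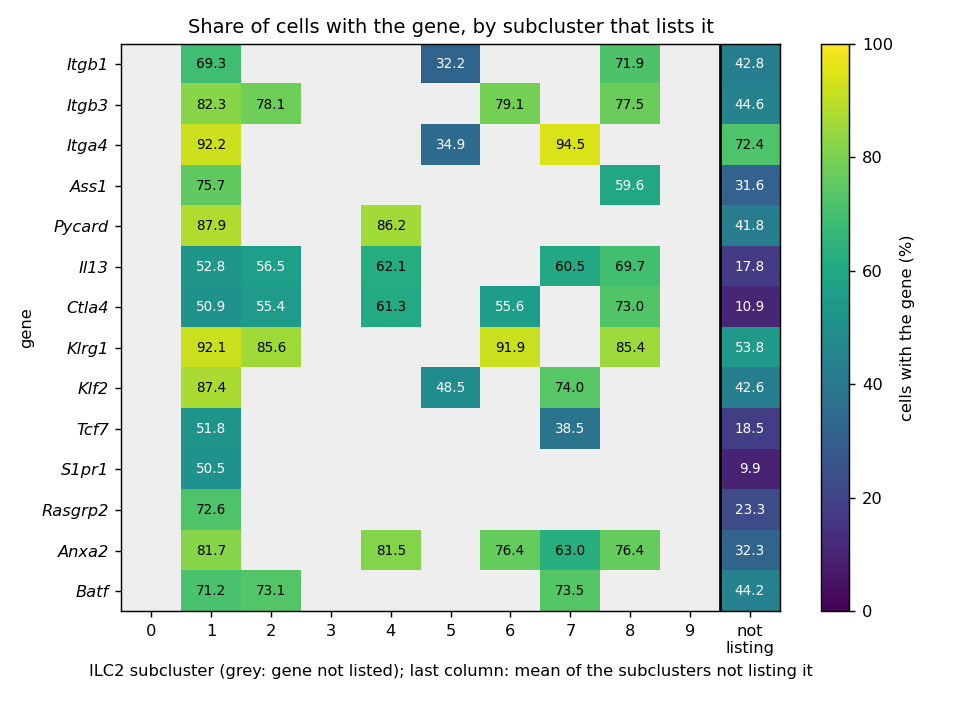
Share of cells with the gene, in percent (colour and printed value), in every subcluster that lists it. Grey means not listed, and the last column is the solved mean over the subclusters that do not list the gene. *Il13* is lowest in subcluster 1 among its 5 listings (52.8%), *Klrg1* highest (92.1%), and *S1pr1* and *Rasgrp2* have a listing in subcluster 1 alone.

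Integrins and other adhesion molecules hold lymphocytes to matrix and vessel walls. Of the 20 integrin and adhesion genes with a row, 8 were listed for subcluster 1, or 40% beside 13.8% of all genes. Of these 8 genes, 4 had a row only because subcluster 1 listed them. Subcluster 8 listed 7 of the 20 beside 9.62% of all genes, so the adhesion genes were not particular to subcluster 1. The listed integrin genes were *Itgb1*, *Itgb3*, *Itgb7*, *Itga2* and *Itga4*. Integrin α2 pairs with β1, and α4 pairs with β1 or β7. *Itgb3* was found in 82.3% of subcluster 1 cells against 54.2%, and at 77.5% to 79.1% in subclusters 2, 6 and 8. *Itga4* was found in 92.2% against 71.0% and in 94.5% of subcluster 7. *Itgb7*, found in 97.8% against 85.2%, and *Itga2* were listed for subcluster 1 alone, as were *Cd48* and *Selplg*, for the selectin ligand PSGL-1 (98.5% against 87.7%). *Cd47* was the remaining member. Among the 3 listings of *Itgb1* the highest share was in subcluster 8 (71.9%), so the gene did not mark subcluster 1 alone. Subcluster 5 listed *Itgb1* although only 32.2% of its cells had it, against 48.5% of other ILC2s.

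Of the 25 actin cytoskeleton genes with a row, 24 were listed for subcluster 1, or 96.0% beside 13.8% of all genes. The fixed list held 38 genes and was written with earlier results of these data known. Of the 24 genes, 6 had a row only because subcluster 1 listed them, which raises the percentage. Subcluster 6 listed 10 of the 25 beside 7.23% of all genes and subcluster 4 listed 7 beside 30.5%. The differences were small, with a median of 7.3 points and a range from 2.6 to 30.2 points, since most of these genes were near 100% in all ILC2s. *Flna*, for the actin cross-linker filamin A, showed the widest gap at 86.4% against 56.2%. *Tpm4*, for a tropomyosin, was found in 69.7% against 47.0%, *Ezr*, for the membrane linker ezrin, in 76.4% against 54.2%, and *Cap1*, for a cyclase-associated protein, in 91.2% against 75.1%. At the low end, and named after the values were seen, *Pfn1*, for profilin, was found in 100% against 97.4%. Only 9 of the 24 differed by at least 10 points. Of the 18 S100, galectin and annexin genes with a row, 13 were listed for subcluster 1 (72.2% beside 13.8% of all genes). Of these 13 genes, 4 had a row only because subcluster 1 listed them. Subcluster 6 listed 8 of the 18 beside 7.23% of all genes, subcluster 7 listed 6 beside 10.3% and subcluster 8 listed 5 beside 9.62%. The 13 genes had a median difference of 10.3 points, and 7 of them differed by at least 10 points. *Anxa2*, *Lgals3* (97.8% against 77.6%) and *Anxa6* (89.1% against 69.5%) had the widest gaps there.

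Checkpoint and costimulatory receptors followed, with 6 of 11 genes listed (54.5% beside 13.8% of all genes), all with a difference of at least 10 points. Subclusters 6 and 8 each listed 3 of the 11, beside 7.23% and 9.62% of all genes, and subcluster 5 listed 3 beside 38%. Besides *Vsir* and *Klrg1* the 6 genes of subcluster 1 were *Ctla4*, *Tnfrsf25*, *Cd27* and *Pdcd1*. *Ctla4*, for an inhibitory receptor, was found in 50.9% against 29.5%, the lowest of its 5 listings, and its mean was 10.9% in the subclusters that did not list it. *Tnfrsf25*, for the receptor of the cytokine TL1A, was listed for subcluster 1 alone (71.2% against 50.1%), as was *Cd27* (44.6% against 28.8%). *Pdcd1*, for PD-1, was found in 44.0% against 32.2%, well under the 74.0% of subcluster 7.

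Other lists were closer to the background of 13.8% or held few members. Of 30 proteasome and antigen presentation genes 9 were listed (30%), among them *Psmb9* (80.8% against 60.5%), *H2-Q7* (92.7% against 73.6%) and *Tap1* (54.3% against 38.3%). In subcluster 8 the shares of these genes were higher, at 95.5%, 98.9% and 76.4%. Subcluster 4 listed 19 of the 30 beside 30.5% of all genes, subcluster 8 listed 14 beside 9.62% and subcluster 6 listed 8 beside 7.23%. Reads of H2 genes may be split among near-identical copies. Of 17 alarmin and cytokine receptor genes 3 were listed, *Il17ra* (52.9% against 30.1%), *Il18r1* (34.8% against 18.7%) and *Ltb4r1* (95.5% against 89.2%). Of 10 arginine and polyamine genes the list held *Ass1* and *Sms*, for spermine synthase (76.7% against 57.1%). *Pycard* was the 1 listed gene of 9 inflammasome and cell death genes, and the caspase genes *Casp1* and *Casp4* were listed for subcluster 8 alone. Of 26 lineage transcription factors 4 were listed, *Klf2*, *Tcf7*, *Lef1* and *Stat3* (83.6% against 67.4%). *Batf* was the 1 listed gene of 7 AP-1 family genes, at 71.2% against 51.3%. *Hmgb2*, at 99.3% against 91.6%, was the 1 listed gene of 23 proliferation genes, all of which subcluster 4 listed. *Mki67*, which marks dividing cells, was found in 54.7% of subcluster 4, and the solved sizes allowed it in up to 67.9% of subcluster 1 cells. Outside the proliferation list, subcluster 1 alone listed *Cdc25b* and *E2f2*, which were also listed for proliferating cells among all sorted cells. Interferon response gave 2 of 18, *Ifitm3* (28.4% against 10.0%) and *Slfn2* (87.1% against 70.8%), glycolysis 3 of 11, and protein entry to the endoplasmic reticulum 2 of 25.

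**Figure D4:**
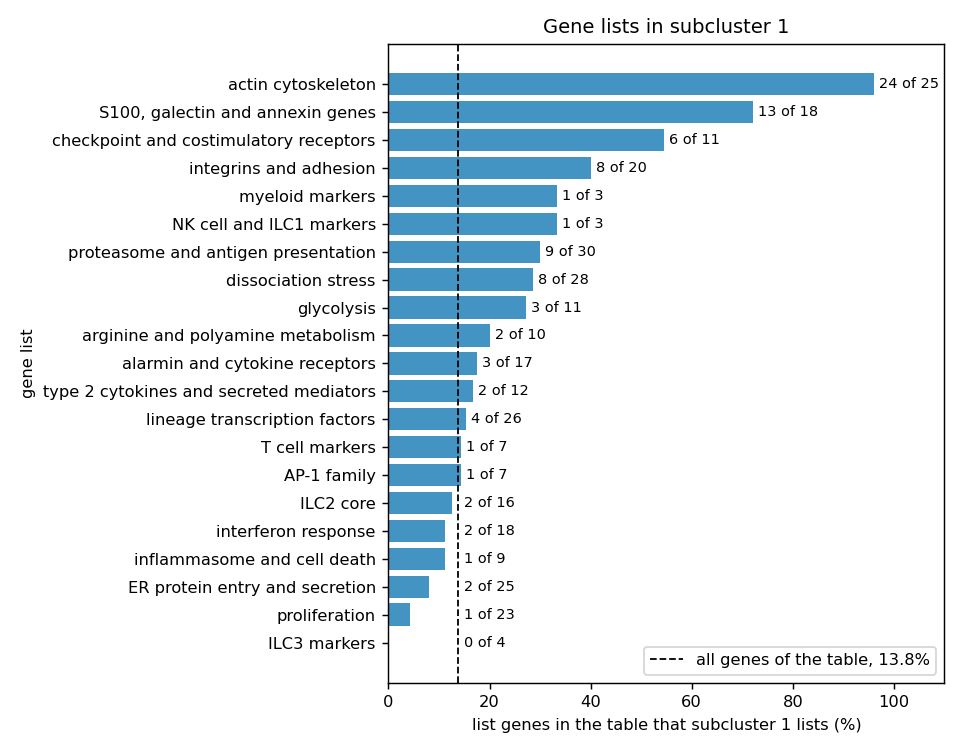
Percentage of the genes of each list that subcluster 1 listed, among list genes present in the table, for lists with at least 3 such genes. A gene is present when any subcluster lists it, subcluster 1 included, and the lists were written with earlier results of these data known. Counts stand beside the bars, and the dashed line is the 13.8% of all genes in the table. Actin cytoskeleton (24 of 25) and S100, galectin and annexin genes (13 of 18) are farthest to the right.

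Markers of other cell types were examined for the whole of each list. Per the study, cells with T cell, myeloid, mast cell or B cell markers (Cd3, Fceri and others) were left out before the ILC2s were clustered again. Low values of such genes were thus partly set by that filter. *Cd3e*, which defines T cells, was listed for subcluster 5 alone (32.0% against 4.7%), so at most 22.5% of subcluster 1 cells could have held it. *Tyrobp*, a myeloid and NK cell gene, could have been in at most 15.7% and *Fcer1g*, which mast cells and basophils also use, in at most 25.6%. The limits were wider for other genes, namely 33.6% for *Trdc*, 42.1% for *Kit* and 43.9% for *Gzma*, and no limit was set for *Cd3g*. Of 7 T cell genes in the table subcluster 1 listed 1, *Trbc2* (86.1% against 80.7%), a gene with a near-identical neighbour. Among NK cell and ILC1 genes it listed 1 of 3 (*Ccl5*), among myeloid genes 1 of 3 (*Cst3*, 95.6% against 86.4%), and among B and plasma cell genes 1 of 2 (*Cd79b*, 38.7% against 19.9%). From the endothelial and lung epithelial list *Pecam1* was listed (38.1% against 24.6%), 1 of 2 in the table. Of all genes 13.8% were listed, and counts over so few marker genes cannot be told apart from that share. No gene of the 4 ILC3 or 2 basophil and mast cell genes in the table was listed, and of the hepatocyte list 0 genes had a row. *Ncr1*, *Cd79a*, *Igkc*, *Lyz2*, *Fcer1a*, *Mcpt8*, *Alb* and *Epcam* had no row in the subcluster table. The part of other cells or of free RNA in the shares was not tested.

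Subcluster 1 shared genes unevenly with the other subclusters. It shared 0 genes with subcluster 0, the largest one, which listed 300 genes, or 11.4% of all genes in the table. With subcluster 8, which listed 9.62% of all genes, it shared 106 genes, 29.2% of its own list and 41.9% of the other list. It shared 75 genes with subcluster 6 (20.7% and 39.5%), which listed 7.23% of all genes, and 62 with subcluster 2 (17.1% and 47.3%), which listed 4.98%. The overlap was 54 genes with subcluster 5 (14.9% of its own list, beside 38% of all genes), 51 with subcluster 4 (14%, beside 30.5%), 35 with subcluster 7 (9.64%, beside 10.3%) and 6 with subcluster 9 (1.65%, beside 7.57%). For the genes shared with subcluster 8 the share of cells was higher in subcluster 1 for 25 and lower for 79, with a median difference of -2.8 points. *Ass1* was an exception, at 75.7% against 59.6% in subcluster 8. The 54 genes shared with subcluster 5 all had the higher share in subcluster 1, by a median of 39.2 points. When a gap of at least 10 points to the other cells was required in both subclusters, the overlap with subcluster 5 fell to 1 gene, that with subcluster 6 to 47, that with subcluster 3 from 15 to 3, that with subcluster 2 to 42 and that with subcluster 8 to 87. The 15 genes shared with subcluster 3 were 4.13% of the subcluster 1 list, below the 9.01% of all genes that subcluster 3 listed. They included genes known to be induced early by stimulation or by tissue dissociation. Examples were *Nr4a1* (79.5% in subcluster 1 and 72.5% in subcluster 3), *Zfp36* (87.5% and 78.9%), *Ier2* (91.7% and 84.4%) and *Dusp1* (85.2% and 84.3%). Of 28 dissociation stress genes with a row 8 were listed for subcluster 1 (28.6%, beside 13.8% of all genes). The widest gap among the 8 was that of *Klf2*, at 43.9 points. *Fos*, *Jun* and *Junb* were not among the 8, which does not show that they were low in subcluster 1. Their means in the subclusters without a listing were 77.9%, 62.2% and 96.2%. The lower limit for subcluster 1 was 84.6% for *Junb* but only 6.22% for *Fos*, and *Jun* had none. Subcluster 3 listed 18 of the 28 beside 9.01% of all genes, subcluster 5 listed 12 beside 38% and subcluster 7 listed 10 beside 10.3%. The part of dissociation in these shares was not tested.

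**Figure D5:**
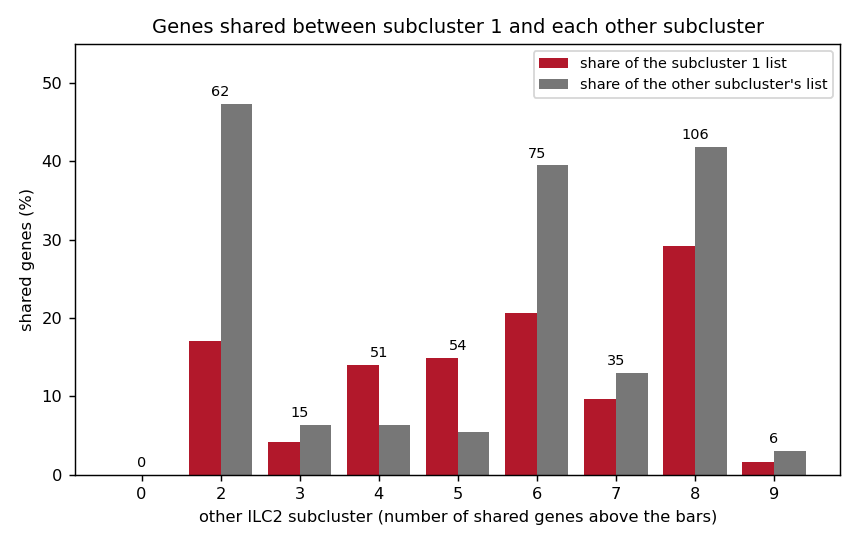
Genes shared between subcluster 1 and each other subcluster, as a percentage of the 363 genes of subcluster 1 (red) and of the other list (grey), with the number of shared genes above the bars. Subcluster 8 shares the most genes (106), and subcluster 0 shares 0.

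No other subcluster listed 133 genes, 36.6% of the list, and their median difference was 15.5 points, close to the 15.8 points of the whole list. Led by *Rasgrp2*, *S1pr1*, *Rasa3* and *Add3*, they also included *Rilpl2*, for a Rab-binding protein (67.2% against 37.6%).

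The study's other table compared the cell types among all sorted cells, and its rows show where else the genes of subcluster 1 were listed. Its shares are not on the scale of the subcluster table, so its listings are used here and none of its shares is printed. Of the 363 genes 115 had a row there. Here each type's list is counted over genes found in both tables. The type named ILC2, with 116 such genes, shared 7 of the 115 (6.09%), namely *Klrg1*, *Hilpda*, *Il13*, *Gadd45b*, *Tent5a*, *S100a4* and *Ltb4r1*. The same figure was 63 of 88 (71.6%) for subcluster 0, 72 of 122 (59.0%) for subcluster 3 and 30 of 66 (45.5%) for subcluster 9. It was 12% to 16.9% for subclusters 2, 5, 6, 7 and 8 and 1.55% for subcluster 4, so a low figure was not particular to subcluster 1. The genes of subcluster 1 were also listed for several T cell, NK cell and basophil types. The γδ T cell type named gdT_TypeIII_ITGAE shared the most, 45 (39.1% of the 115 and 34.9% of its own), and it listed 15.7% of the 820 genes found in both tables. NK shared 40 (34.8% and 38.1%) and listed 12.8% of the 820. Basophil shared 39 (33.9% and 29.5%) and listed 16.1%, and CD4 shared 33 (28.7% and 41.8%) and listed 9.63%. The type ILC2 listed 14.1%. This order did not hold when a minimum difference of shares was required in both tables. *Klf2* was listed for 9 types, among them CD4, CD8_Naive, CD8_Effector, Treg, gdT_Naive and NK, and *S1pr1* for 9, among them CD4, CD8_Naive, Treg and gdT_Naive. *Tcf7* was listed for 6 types and *Lef1* for 5, and both were on the lists of CD4, CD8_Naive, gdT_Naive and gdT_TypeI. *Ccr3* was listed for Basophil alone and *Itga2* for Basophil, ILC1 and NK. *Ass1* was listed for CD4, Treg and both gdT_TypeIII types, and *Itgb1* for 10 types. No type was compared with subcluster 1 cell by cell.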

How the data were processed

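Single-cell RNA-seq of transcript 3′ ends, in droplets, was done on sorted cells from 4 groups of 1 library each. Per the labels, reads were processed with Cell Ranger on mm10. The authors left out cells with few detected genes, merged and clustered the libraries in Seurat, removed cells with markers of other lineages before they clustered the ILC2s again, and made marker tables for 10 ILC2 subclusters and 21 cell types. Doublets were removed by the authors during sorting, and no doublet caller was run here, since the tables hold no single cells. The deposited columns used here are fractions, namely the share of cells of a cluster, and of all other cells, in which a gene was detected. The other deposited columns hold the authors' own comparisons (average log2 fold change and p-values), and neither was used.

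Shares were read with pandas 2.3.3 in Python 3.11.15. Subcluster sizes came from a least-squares fit to 768 genes, each with rows in 2 or more subclusters, and from the equality of a gene's share in all ILC2s whichever subcluster lists it, and the solved sizes summed to 100.2%. The fit was tested on simulated data. Solved sizes also gave the share of positive cells that lay in subcluster 1, the mean share in subclusters that did not list a gene, and limits on shares not listed. Motifs were searched in 250 upstream bases from RefSeq, and coordinates came from GENCODE (GRCm38).

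Genes were named by rule: the 4 marker genes, the 20 with the largest difference of shares, the 10 with the largest ratio among genes in at least 25% of subcluster 1 cells, any gene with the lower share inside (0 genes), the 10 with the largest difference that no other subcluster lists, up to 8 listed members of each fixed list, and fixed markers. Members and the 25 gene lists were chosen with earlier results of these data known, and 45 genes are in more than 1 list. No ribosomal protein (Rpl, Rps) or mitochondrially encoded gene was in the subcluster table (0 genes). No test was run, since each group held 1 library and the tables pool them. Alternatives were a minimum difference of shares and other fits of the sizes.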

Additional observations from a re-analysis of the deposited data

How the results depend on the processing

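No paired analysis was possible because the 4 libraries are pooled in every value, which also means that none of them could be left out. With only genes whose share was at least 10 points above that of the other cells, the fixed-list genes listed for subcluster 1 fell from 92 to 60, which follows from the stricter threshold, and the actin cytoskeleton genes fell from 24 to 9. The listed genes went from 363 to 311, those listed for subcluster 1 alone from 133 to 156 and those of the cell type table from 115 to 90, all within 1.5 times. Single lists and overlaps changed more: 7 of 25 lists, 4 of 9 overlaps with subclusters and 16 of 21 overlaps with cell types moved by over 1.5 times. The 4 overlaps were those with subcluster 5 (54 to 1), subcluster 3 (15 to 3), subcluster 6 (75 to 47) and subcluster 9 (6 to 3). Under that threshold Basophil shared the most genes with subcluster 1 (30), followed by ILC1_ILC3 (24), and gdT_TypeIII_ITGAE went from 45 to 18. The shares of the cell type table may not be shares of cells with a transcript, so a difference of 10 points there is of uncertain meaning and these counts are weak. The solved size of subcluster 1 ranged from 20.04% to 20.07% under the 3 other fits. Depth per cell was unknown, and shares near 100% cannot show differences in level.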

Other observations

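Further genes, chosen after their values were seen, fall into a few groups that the fixed lists covered in part or not at all. Unconventional myosin genes were listed for subcluster 1: *Myo1f* was found in 52.2% against 21.9% of the other ILC2s, *Myo1g* in 74.9% against 47.8% and *Myo1e* in 53.9% against 38.1%. Small GTPase genes included *Rhoc* (39.9% against 15.9%), *Rhog* (67.2% against 46.7%), *Rac1* (91.4% against 78.1%) and *Rap1b* (96.3% against 85.0%), and no other subcluster listed any of these 4. The fixed actin list also holds *Rac2* and *Cdc42*, listed for subcluster 1 alone, and *Rhoa*, which no subcluster listed. Genes of lymphocyte receptor signalling included *Prkcq*, for protein kinase C theta (58.4% against 37.1%), *Prex1* (80.4% against 56.2%), *Dgka* (62.7% against 38.1%) and *Dok2* (82.2% against 65.1%). Chemokine receptor genes were *Ccr3* and *Ccr4*, the latter found in 31.2% of subcluster 1 cells and in 46.2% of subcluster 4.

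A few listed genes are better known from other tissues, and they too were picked after their values were seen. *Klk8*, for a kallikrein protease, was found in 81.6% against 65.6%, *Cela1*, for an elastase, in 28.6% against 16.3%, *Nebl*, for the muscle protein nebulette, in 49.7% against 21.5%, and *Qrfp*, for a neuropeptide, in 36.2% against 12.6%. *Hilpda*, for a lipid droplet protein induced by low oxygen, was found in 82.3% against 61.9%. *Hif1a*, which the fixed glycolysis list holds, was found in 68.0% against 51.5%.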
